A study of Mus musculus with 22 samples.

Results

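Matricellular and adhesive glycoproteins are secreted proteins that sit in the extracellular matrix and tune how cells hold on to it. The group described here was chosen by gene symbol and holds 10 genes of the 55414 in the count table, all 10 found and all 10 passing the filter on low counts: the tenascins Tnc and Tnxb, periostin (Postn), osteopontin (Spp1), Sparc, fibronectin (Fn1), the thrombospondins Thbs1 and Thbs2, and the spondins Spon1 and Spon2. RNA was sequenced in bulk from fibroblasts sorted from mouse back skin, in 22 libraries. In the EXP mice a hydrogel that swells under the skin (an expander) was placed through an incision near the tail, whereas CTRL mice had the same operation and no expander, so that every library comes from operated skin. At day 1 there were 4 CTRL and 5 EXP libraries, at day 2 there were 3 and 3, and at day 4 there were 4 and 3. Sorting removed cells with CD31, CD45, CD117 or EpCAM on their surface and kept those with both CD34 and PDGFRα, so Cd34 and Pdgfra are genes of the gate itself. Strain, sex and age of the mice were not given in the sources used here.

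Fibroblasts make most of the dermal matrix. Matricellular proteins add little to its structure; they bind collagens, integrins and growth factors, are scarce in much of the resting adult dermis, and several of them are known to be induced in wounds and in tissue under load. Fibronectin is both structural and adhesive: cells pull it into fibrils through integrins, and later matrix is laid on it.

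The libraries held 21461294 to 30210204 counts. The labels give replicate numbers but do not say that each library is 1 mouse, so p-values measure the spread between these libraries. Called means an adjusted p under 0.05 in edgeR's quasi-likelihood test over 17554 genes, with all 22 libraries in 1 fit. With TMM scaling the median log2 fold change of all genes (EXP over CTRL) was 0.02, 0.02 and 0.03 at days 1, 2 and 4; with library totals alone it was 0.21, 0.49 and 0.36, and the share of calls that were higher in EXP went from 48.7% to 66.2%, from 57.5% to 90.5% and from 57.0% to 80.7%. No direction of the 10 genes flipped with library totals. Levels below are CPM, counts per 1000000 of the TMM-scaled total, and folds are log2 with their standard error. The libraries also fell on 2 sides of a gap in the level of 192 genes that move with Rnf10. The high side held 7 libraries (CTRL 1, 2 and 3 and EXP 1 and 2 of day 1, and CTRL 3 and 4 of day 4) and the low side 15. All 8 fibroblast markers were detected. Their summed level, most of it Col1a1 and Col1a2, was 138000 to 289000 CPM in CTRL and 41100 to 185000 CPM in EXP libraries. The list did not move as a set. On at least 1 day Pdgfra and Pdpn were called higher in EXP, and Cd34, Col1a1, Col1a2, Dcn and Lum lower. Thy1 was called on none (edgeR). At day 4 the 6 adipocyte markers summed to 2.43 to 7.40 CPM in CTRL and 44.7 to 317 CPM in EXP, and the 6 endothelial markers to 4.15 to 9.96 and 23.7 to 55.6 CPM; at day 2 the sums were 8.96 to 11.1 and 11.8 to 80.1 CPM for adipocyte and 0.498 to 0.783 and 2.08 to 7.39 CPM for endothelial markers, again with no overlap. At day 2 Fabp4 (5.09, adjusted p = 0.00925), Cidec (6.94, adjusted p = 0.0312) and Kdr (3.72, adjusted p = 0.0345) were called higher in EXP (edgeR). Adipoq, Plin1, Plin4, Tek, Pecam1, Emcn and Vwf were not called at day 2, and Vwf had -0.83. At day 4 Fabp4, Cidec, Plin1 and Adipoq were called higher, by 6.46, 8.68, 9.15 and 7.16 (adjusted p = 7.55e-04, 0.00343, 0.00843 and 0.00508). Plin4 was not (1.64, adjusted p = 0.108; edgeR). Most of the day 4 endothelial sum in EXP was Tek (16.9 to 44.8 CPM), which was not called that day (adjusted p = 0.0563). Kdr and Emcn, at most 2.57 and 1.18 CPM there, were called higher (adjusted p = 0.0179 and 0.0394), and Pecam1 and Vwf were not (edgeR). The part of these markers in the day 2 and day 4 values below was not tested. Over all libraries the keratinocyte list summed to at most 47.3 CPM, the skeletal muscle list to at most 11, and the list for Schwann cells and melanocytes to at most 5.83. The pericyte and smooth muscle list summed to 262 to 821 CPM, most of it Pdgfrb (234 to 803 CPM). Its other genes reached at most 46.7 (Kcnj8), 15.8 (Cspg4), 9.43 (Des), 4.54 (Rgs5), 3.84 (Notch3) and 2.34 CPM (Myh11). In bulk samples, fewer cells of a type and less RNA per cell cannot be told apart. Day and the day of processing cannot be told apart either.

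At day 1, 4 of the 10 genes were called: Tnc rose in EXP, while Fn1, Postn and Spon2 fell. At day 2, 5 were called: Tnc, Postn and Spp1 rose, and Sparc and Spon2 fell. At day 4, the 3 that were called (Tnc, Postn and Spp1) all rose. Of all genes, 28.6%, 13.4% and 22.5% were called at these days. The median log2 fold change of the 10 genes was -0.52, 0.59 and 0.25. Libraries of EXP and CTRL did not overlap for 2, 9 and 3 of the 10 genes, against 23.9%, 39.3% and 25.5% of all genes. Tnc was the member called higher on all 3 days (2.5% of all genes), and none was called lower on all 3 (1.78% of all genes; edgeR), whereas DESeq2 called Spon2 lower on all 3. Spon2 had negative values at all 3 days and passed the test at days 1 and 2. The EXP effect itself differed between days for 3 of the 10, Fn1, Postn and Spp1, against 8.82% of all genes.

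**Figure D1:**
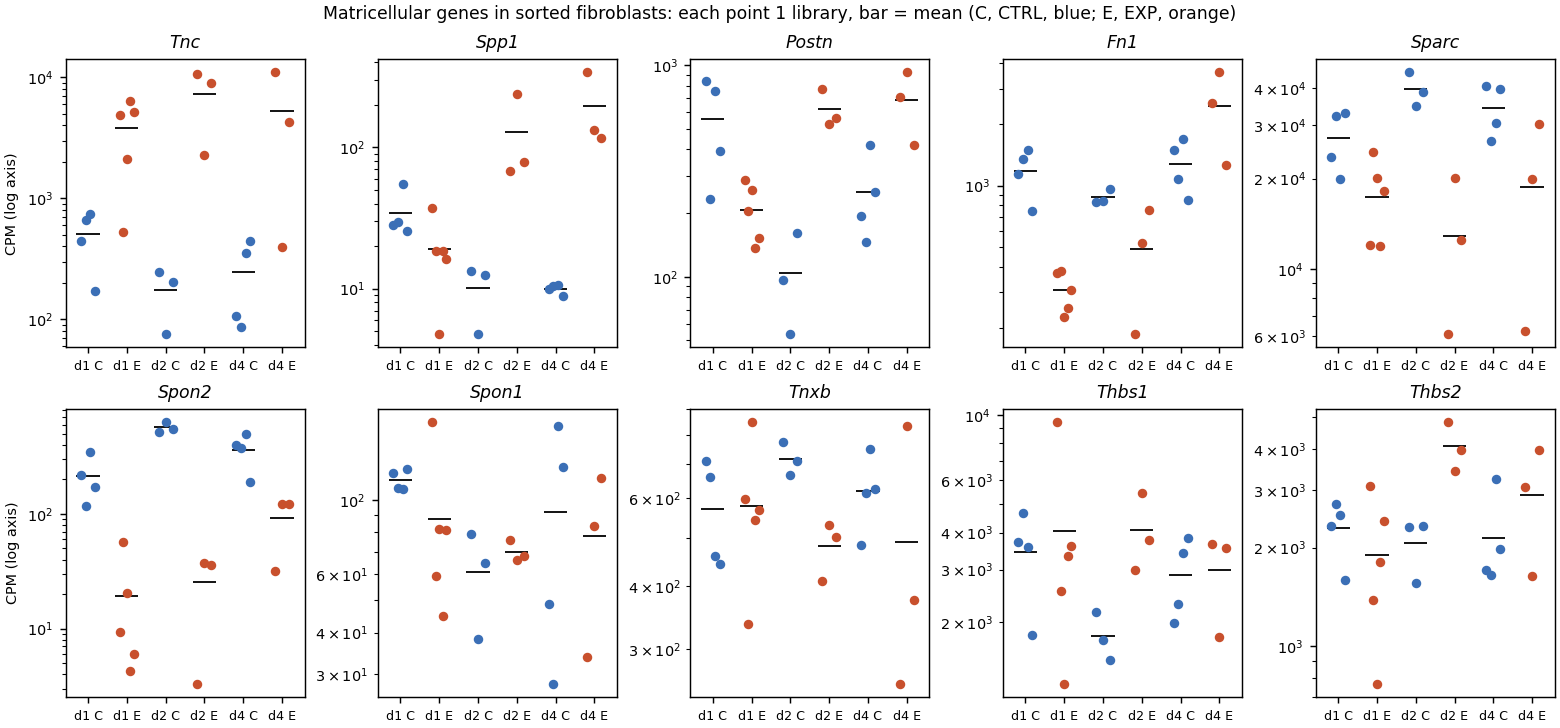
Level of the 10 genes in each of the 22 libraries (CPM, log axis), by day (d) and arm (C, CTRL, blue; E, EXP, orange); each point is 1 library and each bar the mean of the group. Tnc is high in most EXP libraries of every day, with 529 CPM in 1 day 1 library and 393 CPM in 1 day 4 library, and Spp1 is above every CTRL library in the EXP libraries of days 2 and 4 only.

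**Figure D2:**
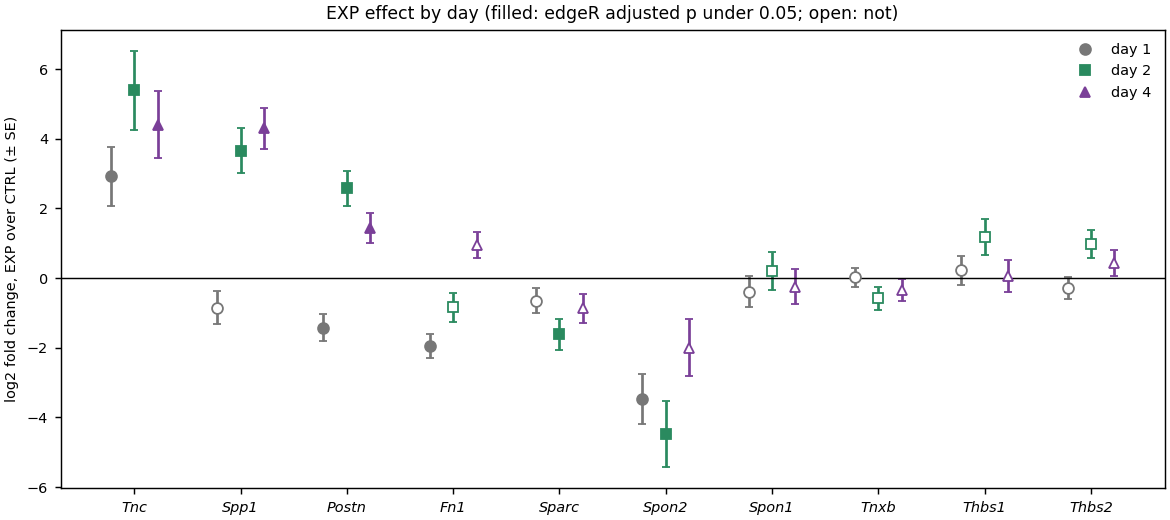
Log2 fold change of EXP over CTRL for each gene at days 1, 2 and 4, with its standard error; filled symbols passed an adjusted p of 0.05 in edgeR and open ones did not. Postn goes from -1.42 at day 1 to 2.58 at day 2, Fn1 from -1.95 at day 1 to 0.95 at day 4.

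The start regions of 4 of the genes are shown because they carry the contrasts of the results: the tenascins Tnc and Tnxb, of which the first was called on every day and the second on none when all libraries were fitted together, and Postn and Spp1, whose EXP effect changed with the day. RefSeq's table for GRCm38.p6 matched 6 of the 10 genes (also Thbs2 and Sparc). Each line gives the 250 bases before a listed start, 5′ to 3′ on the strand of the gene; capitals mark matches to the motifs searched. Tnc (chr4:64047016-64047265, minus strand) is shown for the more upstream of its 2 listed starts, Tnxb (chr17:34670285-34670534, plus strand) for its only one, Postn (chr3:54360857-54361106, plus strand) for the more downstream of 2 and Spp1 (chr5:104434861-104435110, plus strand) for the more upstream of 2. The other listed start of Postn and that of Spp1 matched none of the motifs, and the other start of Tnc holds the same TATAAA.
Tnc: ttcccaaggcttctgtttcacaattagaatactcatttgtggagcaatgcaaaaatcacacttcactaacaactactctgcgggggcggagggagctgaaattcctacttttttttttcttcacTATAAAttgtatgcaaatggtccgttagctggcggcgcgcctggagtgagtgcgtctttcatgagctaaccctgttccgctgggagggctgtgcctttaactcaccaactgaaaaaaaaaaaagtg
Tnxb: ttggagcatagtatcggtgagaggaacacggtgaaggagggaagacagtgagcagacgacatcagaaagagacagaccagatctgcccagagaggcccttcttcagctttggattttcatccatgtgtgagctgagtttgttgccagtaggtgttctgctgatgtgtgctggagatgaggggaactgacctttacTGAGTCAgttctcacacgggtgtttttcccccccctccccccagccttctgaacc
Postn: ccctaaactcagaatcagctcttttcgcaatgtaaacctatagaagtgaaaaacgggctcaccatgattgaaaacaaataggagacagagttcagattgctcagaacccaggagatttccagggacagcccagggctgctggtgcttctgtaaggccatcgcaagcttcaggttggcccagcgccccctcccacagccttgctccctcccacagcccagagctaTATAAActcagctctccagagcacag
Spp1: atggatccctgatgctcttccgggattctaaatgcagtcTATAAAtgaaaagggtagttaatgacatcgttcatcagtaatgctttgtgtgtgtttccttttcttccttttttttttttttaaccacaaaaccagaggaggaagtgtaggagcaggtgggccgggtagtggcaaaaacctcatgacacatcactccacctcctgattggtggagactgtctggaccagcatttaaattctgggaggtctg
Both strands were searched for an AP-1 motif (TGANTCA, in 6.75% of all 32851 listed promoters), a TEAD motif (GGAATG, 12.6%), a TATA motif (TATAAA, 12.4%), the CArG box (1.47%) and the NF-kB site (7.25%). Tnc holds TATAAA 126 to 121 bases before this start, Postn 26 to 21 bases before and Spp1 211 to 206 bases before. Tnxb holds TGAGTCA 55 to 49 bases before its start, and because those letters read as the motif on either strand they count once. A match is a run of letters and not a measured site, and expression here was not tied to any of them.

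Tnc encodes tenascin-C, a glycoprotein that loosens the grip of cells on fibronectin and is known for its appearance in wound edges. At day 1 its level was 445, 664, 736 and 172 CPM in CTRL 1 to 4 and 4890, 529, 2124, 6406 and 5123 CPM in EXP 1 to 5. EXP 2 lay inside the CTRL range and the other EXP libraries lay above it. At day 2 CTRL had 244, 75.2 and 202 CPM and EXP 10630, 2285 and 8929 CPM. The arms did not overlap at day 2. At day 4 CTRL had 106, 86.6, 354 and 440 CPM, and EXP 11030, 393 and 4237 CPM, with EXP 2 inside the CTRL range. Tnc rose in EXP on each day, by 2.92 ± 0.85 (adjusted p = 0.0150), 5.39 ± 1.13 (adjusted p = 0.00457) and 4.40 ± 0.96 (adjusted p = 0.00428; edgeR). The test of a change in this effect between days did not pass (adjusted p = 0.354). Without EXP 1 the value at day 4 was 3.23, still called. At day 1 the 5 libraries on the high side of the split alone gave 2.10 with an adjusted p of 0.0689.

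The spread of Tnc within EXP was the widest of the 10 genes at day 4, where the highest library had 28.1 times the level of the lowest. Over the 22 libraries the genes whose log2 CPM lay closest to it were Slc6a6 (Pearson r = 0.945), Pdgfra (0.910) and Ttc39b (0.907), values that share the libraries and groups and are a description. Pdgfra, a gene of the sorting gate, was itself called higher on every day, by 0.84, 1.71 and 0.79 (adjusted p = 0.0154, 0.00134 and 0.0456; edgeR). Its level was 227 to 413 CPM in CTRL and 295 to 1020 CPM in EXP libraries. The part of the gate in the Tnc values was not tested.

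Tnxb encodes tenascin-X, a tenascin of mature dermis that binds collagen fibrils and whose loss causes a form of Ehlers-Danlos syndrome. CTRL libraries of day 1 had 444 to 712 CPM (median 561) and EXP libraries 337 to 850 CPM (median 569). On day 2 the CTRL libraries had 775, 667 and 711 CPM and EXP 411, 531 and 503 CPM, all 3 below CTRL. On day 4 they had 484, 615, 751 and 624 CPM and EXP 256, 836 and 376 CPM. No day passed: the values were 0.02 ± 0.27, -0.58 ± 0.33 and -0.34 ± 0.31 (adjusted p = 0.958, 0.274 and 0.463; edgeR). The day 2 libraries fitted alone gave -0.58 with an adjusted p of 0.0319, which passed, and leaving out EXP 2 at day 4 gave -0.99 with an adjusted p of 0.0395. The nearest genes over the libraries were Mocos (r = 0.835), Pacs2 (0.733) and Rere (0.729).

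Postn encodes periostin, which binds collagen, fibronectin and tenascin-C and aids collagen cross-linking. Its day 1 level was 845, 233, 757 and 392 CPM in CTRL and 287, 204, 258, 137 and 153 CPM in EXP; the lowest CTRL library lay among the EXP ones. A day later CTRL had 96.6, 53.5 and 161 CPM, and EXP 773, 525 and 563 CPM. The order of the arms was thus the opposite, with no overlap. The day 4 levels were 194, 145, 419 and 252 CPM in CTRL and 710, 927 and 422 CPM in EXP, the lowest EXP library just above the highest CTRL one. Postn fell by 1.42 ± 0.38 at day 1 (adjusted p = 0.00914), and rose by 2.58 ± 0.50 at day 2 (adjusted p = 0.00238) and by 1.44 ± 0.44 at day 4 (adjusted p = 0.0236; edgeR).

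The EXP effect on Postn differed between days (adjusted p = 0.00136), by 4.00 ± 0.63 from day 1 to day 2 (adjusted p = 0.00224) and by 2.86 ± 0.58 from day 1 to day 4 (adjusted p = 0.00449; edgeR). Both arms moved: within EXP its level rose by 1.58 ± 0.41 from day 1 to day 2 (adjusted p = 0.0436), and within CTRL it fell by 2.42 ± 0.48 (adjusted p = 0.0323). From day 2 to day 4 the difference of effects was -1.14 ± 0.65 and did not pass (adjusted p = 0.768). The call at day 4 was lost without any 1 of CTRL 1, 2 or 4 or EXP 1 or 2, with adjusted p = 0.0549, 0.0603, 0.0504, 0.0756 and 0.132, and with day 4 fitted alone (0.0647). On the high side of the split alone, day 1 gave -1.36 with an adjusted p of 0.0955. The nearest genes were Unc93b1 (r = 0.90), Fhl2 (0.869) and Mxra8 (0.864).

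Spp1 encodes osteopontin, a secreted phosphoprotein that binds integrins and CD44 and is made by activated macrophages as well as by stromal cells after injury. Its day 1 level was 28.4, 29.5, 54.9 and 25.4 CPM in CTRL and 37.4, 18.6, 4.76, 18.6 and 16.2 CPM in EXP. The day 2 libraries had 13.2, 4.80 and 12.4 CPM in CTRL and 67.5, 238 and 78.9 CPM in EXP. The day 4 libraries had 9.91, 10.4, 10.6 and 8.91 CPM in CTRL and 340.0, 133 and 117 CPM in EXP. The arms overlapped at day 1 and lay far apart on the later days. The value was -0.85 ± 0.48 at day 1 and did not pass in edgeR (adjusted p = 0.191), whereas limma voom called it (-1.11, adjusted p = 0.0459). Spp1 rose by 3.66 ± 0.65 at day 2 (adjusted p = 0.00138) and by 4.30 ± 0.59 at day 4 (adjusted p = 2.53e-04; edgeR).

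The EXP effect on Spp1 differed between days (adjusted p = 8.03e-04), by 4.51 ± 0.79 from day 1 to day 2 (adjusted p = 0.00584) and by 5.16 ± 0.74 from day 1 to day 4 (adjusted p = 5.35e-04; edgeR). Within EXP it rose by 2.74 ± 0.51 from day 1 to day 2 and by 3.36 ± 0.52 from day 1 to day 4 (adjusted p = 0.00663 and 2.74e-04). Without EXP 2 the day 2 value was 2.84, and without EXP 1 the day 4 value was 3.65, both still called. The 8 leukocyte and macrophage markers summed to 63.2 to 182 CPM in CTRL and 63.4 to 180 CPM in EXP libraries, most of it Csf1r and Cd14. Of that list, Ptprc, Adgre1 and Itgam were at or near 0, with at most 7, 6 and 7 counts in a library. Cd14 was called higher in EXP on all 3 days, with 0.85, 1.18 and 1.34 (adjusted p = 0.0362, 0.0337 and 0.00840), and Cd68 at days 1 and 2, with 1.36 and 1.86 (adjusted p = 0.0207 and 0.0217; edgeR). Csf1r was called lower at day 1 (-1.12, adjusted p = 0.0174) and had -1.19 and -0.57 at days 2 and 4 (adjusted p = 0.0629 and 0.303; edgeR). The part of such cells in the Spp1 values was not tested. The nearest genes over the libraries were Havcr2 (r = 0.915), Ckap2 (0.857) and Kif22 (0.849).

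Sparc (osteonectin) binds collagen and helps procollagen to be processed, and it had the highest mean level per exon length of the 10 genes in every group. In CPM, the day 1 libraries had 23490, 32270, 19950 and 33130 in CTRL and 12050, 24440, 20100, 11970 and 18240 in EXP. Those of day 2 had 45090, 34840 and 38630 in CTRL and 6081, 20140 and 12460 in EXP. Those of day 4 had 40430, 26700, 30540 and 39630 in CTRL and 6222, 19950 and 30250 in EXP. The arms were apart at day 2 and overlapped on the other days. At day 2 Sparc fell by 1.62 ± 0.45 (adjusted p = 0.0202; edgeR); the values at days 1 and 4, -0.65 ± 0.36 and -0.87 ± 0.42, did not pass (adjusted p = 0.182 and 0.138). The day 2 call was lost without CTRL 1 (adjusted p = 0.0620), EXP 1 (0.118) or EXP 3 (0.0675), and without EXP 3 the day 4 value was -1.36 and passed (adjusted p = 0.0316). The nearest gene over the 22 libraries was Col1a2, a chain of type I collagen (r = 0.969), followed by Kazald1 (0.966) and Glt8d2 (0.953). Col1a2 was called lower in EXP at days 1 and 2, with -0.93 and -1.66 (adjusted p = 0.0495 and 0.0150; edgeR).

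Fn1 encodes fibronectin, the substrate on which wound matrix is laid. CTRL 1 to 4 of day 1 had 1135, 1355, 1504 and 755 CPM, and EXP 1 to 5 had 371, 381, 225, 251 and 307 CPM. The 3 CTRL libraries of day 2 had 829, 838 and 965 CPM and EXP 186, 523 and 760.1 CPM. EXP lay below CTRL in every library of these days. By day 4 CTRL had 1493, 1082, 1693 and 846 CPM, and EXP 2535, 3612 and 1269 CPM, of which EXP 1 and 2 lay above all CTRL libraries. At day 1 Fn1 fell by 1.95 ± 0.33 (adjusted p = 2.63e-04), and on the high side of the split alone the value was -1.86 (adjusted p = 0.00450). The day 2 value was -0.84 ± 0.41 (adjusted p = 0.180) and the day 4 value 0.95 ± 0.37 (adjusted p = 0.0710; edgeR). Without EXP 3 the day 4 value was 1.28 and passed (adjusted p = 0.0164), and it also passed with library totals (1.31, adjusted p = 0.0120) and with the split as a covariate (1.14, adjusted p = 0.0467).

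The EXP effect on Fn1 differed between days (adjusted p = 0.00405), by 2.90 ± 0.50 from day 1 to day 4 (adjusted p = 0.00145; edgeR). Within EXP Fn1 rose by 3.01 ± 0.36 from day 1 to day 4 (adjusted p = 2.86e-05) and by 2.34 ± 0.42 from day 2 to day 4 (adjusted p = 0.0248). Within CTRL the value from day 1 to day 4 was 0.11 ± 0.35 (adjusted p = 0.933). The nearest genes were Islr (r = 0.933), Smim1 (0.912) and Adamts12 (0.911).

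Thbs1 encodes thrombospondin-1, which activates latent TGF-β and binds CD36 and CD47. Its level was 1802 to 4677 CPM in CTRL (median 3653) and 1234 to 9471 CPM in EXP (median 3334) at day 1. Its day 2 levels were 2157, 1731 and 1491 CPM in CTRL and 3002, 5450 and 3762 CPM in EXP, all above CTRL. On day 4 CTRL spanned 1974 to 3835 CPM and EXP 1779 to 3662 CPM. Its relative Thbs2, which restrains vessel growth and shapes collagen fibrils, had 1597 to 2718 CPM in CTRL and 767 to 3086 CPM in EXP at day 1. At day 2 Thbs2 had 2303, 1555 and 2334 CPM in CTRL and 4844, 3421 and 3965 CPM in EXP, and at day 4 it spanned 1645 to 3240 CPM and 1635 to 3972 CPM.

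Neither thrombospondin passed on any day. Thbs1 had 0.23 ± 0.42, 1.18 ± 0.51 and 0.06 ± 0.47 (adjusted p = 0.719, 0.134 and 0.941), and Thbs2 had -0.27 ± 0.32, 0.98 ± 0.39 and 0.43 ± 0.36 (adjusted p = 0.557, 0.103 and 0.413; edgeR). The day 2 values of both genes passed when the day 2 libraries were fitted alone (adjusted p = 0.0102 for Thbs1 and 0.0138 for Thbs2), with library totals (0.0245 and 0.00997) and with limma voom (0.0191 and 0.0214). The pair moved together from library to library within groups (r = 0.798 after group means were removed, over 22 libraries that share depth and scaling). Scyl3 (r = 0.798), Trmt1l (0.782) and Ywhah (0.757) lay nearest to Thbs1, and Cav1 (0.827), Odf2 (0.816) and Pdpr (0.796) to Thbs2.

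Spon2 encodes mindin, a spondin that binds integrins and is known for its role in innate immunity. CTRL 1 to 4 of day 1 had 220, 116, 348 and 172 CPM, and EXP 1 to 5 had 9.36, 56.6, 20.3, 4.23 and 6.05 CPM. The day 2 values were 515, 635 and 555 CPM in CTRL and 3.30, 37.0 and 36.1 CPM in EXP. The day 4 values were 399.6, 372, 494 and 188 CPM in CTRL and 31.5, 121 and 121 CPM in EXP. Every EXP library lay below every CTRL library of its day. Spon2 fell by 3.47 ± 0.72 at day 1 (adjusted p = 0.00144) and it fell by 4.48 ± 0.94 at day 2 (adjusted p = 0.00470), and the day 4 value of -1.99 ± 0.82 did not pass (adjusted p = 0.0843; edgeR). DESeq2 called the day 4 value too (adjusted p = 0.0380). Within EXP it rose by 2.24 ± 0.72 from day 1 to day 4 (adjusted p = 0.0363), and the test of a day-dependent effect did not pass (adjusted p = 0.300). Without EXP 2 the day 1 value was -4.42.

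The gene nearest to Spon2 over the 22 libraries was Cd34 (r = 0.961), the other gene of the sorting gate, followed by Col3a1 and Srpx (both 0.950). Cd34 was called lower in EXP at days 1 and 2, with -1.74 and -2.07 (adjusted p = 8.10e-04 and 0.00379), and had -0.93 at day 4 (adjusted p = 0.0948; edgeR). Its level was 1270 to 2350 CPM in CTRL and 216 to 1550 CPM in EXP libraries, and the part of the gate in the Spon2 values was not tested. Spon1, or F-spondin, known from axon guidance, passed the test on no day. Its level was 107.8 to 124.4 CPM in CTRL and 44.8 to 172 CPM in EXP at day 1, 38.2 to 79.2 and 66.3 to 75.9 CPM at day 2, and 28.0 to 167 and 33.8 to 116 CPM at day 4. The values were -0.39 ± 0.44, 0.21 ± 0.54 and -0.24 ± 0.51 (adjusted p = 0.544, 0.845 and 0.769; edgeR). Arl2bp (r = 0.733), Pomgnt1 (0.724) and Galnt10 (0.720) lay nearest to it.

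Within EXP, 3 of the 10 genes (Fn1, Postn and Spp1) changed over days 1, 2 and 4, against 14.3% of all genes. Between days 1 and 2, 2 of the 10 were called (Postn and Spp1; 2.63% of all genes), between days 2 and 4, 1 (Fn1; 0.387%), and between days 1 and 4, 4 (also Spon2; 19%), all of them higher on the later day. Within CTRL none passed in edgeR, against 0.291% of all genes; Postn had an adjusted p of 0.0520 and Spp1 0.138, both with an unadjusted p under 0.05, and DESeq2 and limma voom each called these 2, when they called 3.31% and 3.59% of all genes. Without CTRL 2 of day 1 or CTRL 3 of day 4, edgeR also called Postn within CTRL (1 of 10). From day 1 to day 2 Postn alone was called within CTRL (0.296% of all genes), and none from day 2 to day 4 (0.0057%) or from day 1 to day 4 (0.131%), where 1 and 2 of the 10 had an unadjusted p under 0.05 in edgeR. The difference of the EXP effect was called for 2 genes from day 1 to day 2 (2.96% of all genes), for 3 from day 1 to day 4 (13.3%) and for 0 from day 2 to day 4 (0% of all genes; 2 of the 10 with an unadjusted p under 0.05). Ordered by group mean, neighbouring groups overlapped in their libraries for all genes except at 3 places. These were Spp1 between CTRL of day 1 and EXP of day 2, Fn1 between EXP and CTRL of day 2, and Spon2 between CTRL of day 4 and CTRL of day 2. The highest group mean was EXP of day 2 for Tnc, Thbs1 and Thbs2, EXP of day 4 for Postn, Spp1 and Fn1, CTRL of day 2 for Tnxb, Sparc and Spon2, and CTRL of day 1 for Spon1.

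Levels of different genes were compared per length, as CPM per kilobase of the joined exons of the gene. That length takes in every annotated exon, 8702 bases for Postn and 11685 for Fn1, and ranks by another length were not computed. Some ranks were close, as for Tnc (64.9) and Postn (64.0) in CTRL of day 1. Sparc was first of the 10 in all 6 groups, from 3403 in EXP of day 2 to 10430 in CTRL of day 2. Tnc was 6th or 7th in the CTRL groups, at 22.4 to 64.9, and 2nd or 3rd in the EXP groups, at 491 to 937. Spon2 went the other way, from 4th or 5th in CTRL (72.6 to 193) to 9th or 10th in EXP (6.55 to 31.0). Spp1 was 9th or 10th in CTRL (6.05 to 20.96) and 8th, 5th and 6th in EXP at days 1, 2 and 4 (11.6, 77.7 and 119). The thrombospondins stayed among the first 4 in every group. All 10 genes together took 3.01% to 4.18% of the raw counts of a library, without TMM scaling.

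**Figure D3:**
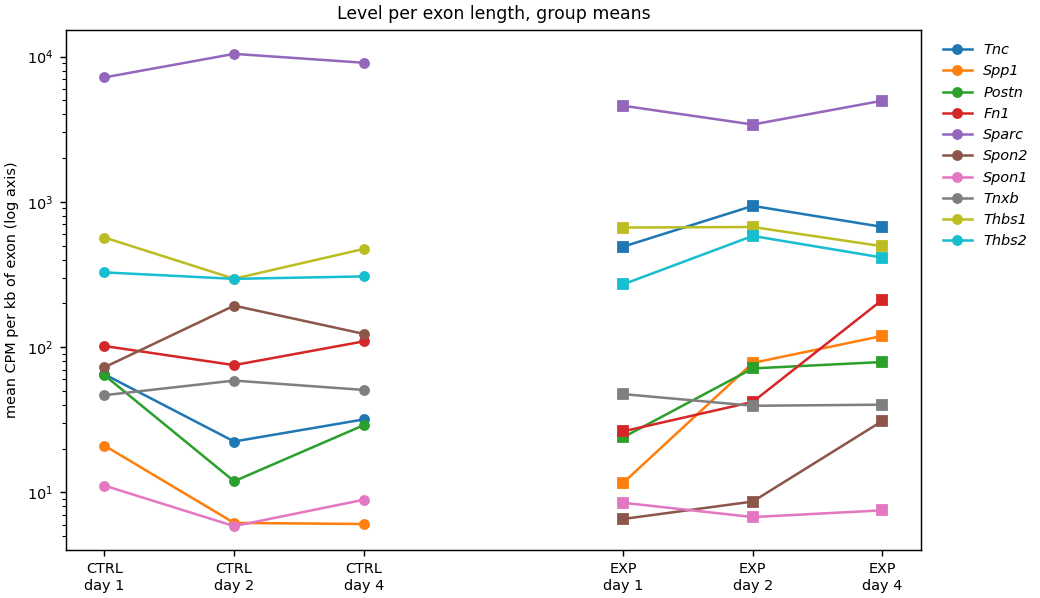
Mean level of each gene per kilobase of exon (CPM per kb, log axis) in the 3 CTRL groups (left) and the 3 EXP groups (right). Sparc is highest in all 6 groups, between 3403 and 10430, Tnc ranks 6th or 7th in CTRL and 2nd or 3rd in EXP, and Spon2 4th or 5th in CTRL and 9th or 10th in EXP.

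The cell surface receptors of these proteins were followed in a list of 14 genes, all tested. At day 1, 3 were higher and 3 lower in EXP; at day 2, 3 were higher and 1 lower; at day 4, 2 were higher and 2 lower. The shares called among all genes were 13.9% higher and 14.7% lower, 7.72% and 5.71%, and 12.8% and 9.66%. Of the 3 lower at day 1, Itga4 had at most 39 counts in a library. The list's median log2 fold change was 0.06, 0.31 and -0.09. Itga5, the alpha chain of the main fibronectin-binding integrin, rose on all 3 days, by 1.15 ± 0.27, 1.43 ± 0.32 and 1.28 ± 0.30 (adjusted p = 0.00309, 0.00635 and 0.00547). Its level was 141 to 300 CPM in CTRL and 352 to 708 CPM in EXP at day 1, with no overlap at any day. Its day 1 call was lost on the high side alone (0.99, adjusted p = 0.0803). Cd44, a hyaluronan receptor that also binds osteopontin, rose by 1.37 ± 0.17, 1.11 ± 0.20 and 0.81 ± 0.19 (adjusted p = 1.52e-05, 0.00142 and 0.00535; edgeR), from 158 to 219 CPM in CTRL to 375 to 541 CPM in EXP at day 1. The day 4 call of Cd44 was lost with day 4 fitted alone (0.79, adjusted p = 0.0628).

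Sdc4, a heparan sulfate proteoglycan that acts with integrins on fibronectin, was called higher at day 1 (0.82 ± 0.25, adjusted p = 0.0183) and lower at day 4 (-0.82 ± 0.29, adjusted p = 0.0466; edgeR). The day 4 call was lost without CTRL 3 or 4 or EXP 1 or 2, with adjusted p up to 0.244, and in 8 of 10 other settings, with values of -0.84 to -0.28 over the 10 and adjusted p up to 0.648. It held with DESeq2 and with its size factors in edgeR, and was lost with library totals, voom, no filter, day 4 fitted alone, the replicate block, the split as a covariate and both low-side fits. The day 1 call was lost without CTRL 1 (adjusted p = 0.0626) and on the high side with the other days kept (0.0854). Without any 1 day 2 library other than EXP 2, the count of receptors called at day 2 was 2, namely Itga5 and Cd44. Of all genes, 4.88% to 8.58% were called in those fits.

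Of 24 other matricellular genes, 23 were tested (Comp was too low). At day 1, 2 were higher and 8 lower in EXP; at day 2, 3 were higher and 2 lower; at day 4, 7 were higher and 4 lower. Among all genes, 13.9%, 7.72% and 12.8% were called higher at these days, and 14.7%, 5.71% and 9.66% lower. The median log2 fold change of the list was -0.42, -0.18 and 0.55. Ccn3, a member of the CCN family known to restrain growth, rose on all 3 days, by 1.11 ± 0.41, 2.46 ± 0.51 and 3.48 ± 0.48 (adjusted p = 0.0462, 0.00414 and 2.44e-04). Its mean was 61.9 ± 18.02 CPM in CTRL and 134 ± 57.1 CPM in EXP at day 1 (SD, n = 4 and 5), and 31.7 ± 7.05 and 353 ± 222 CPM at day 4 (SD, n = 4 and 3). Fbln1, a fibulin that binds fibronectin and elastic fibres, fell on all 3, with -0.66 ± 0.16, -0.84 ± 0.19 and -1.30 ± 0.19 (adjusted p = 0.00329, 0.00669 and 2.44e-04; edgeR), from 647 ± 47.9 to 263 ± 71.0 CPM at day 4. The day 1 call of Ccn3 was lost without any 1 of CTRL 1, 2 or 3 or EXP 1, 4 or 5 (adjusted p up to 0.127), and in 4 of 10 other settings (adjusted p up to 0.184). The day 1 call of Fbln1 was lost on the high side of the split, alone (-0.47, adjusted p = 0.156) and with the other days kept (-0.44, adjusted p = 0.189), and its day 2 call without EXP 1 (adjusted p = 0.0575) or with library totals (-0.38, adjusted p = 0.0562). With library totals, 8 of these genes were higher and 0 lower at day 2, when 26.4% of all genes were called.

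Ccn5, a CCN protein that lacks the end domain of its family, had opposite signs at day 1 and on the later days: it fell by 2.16 ± 0.46 at day 1 (adjusted p = 0.00178) and rose by 1.74 ± 0.57 at day 2 (adjusted p = 0.0466) and by 2.14 ± 0.52 at day 4 (adjusted p = 0.00795; edgeR). Its mean was 328 and 73.4 CPM in CTRL and EXP at day 1, and 90.4 and 399 CPM at day 4. The day 2 call was lost without any 1 of the 6 libraries of that day (adjusted p 0.0605 to 0.169) and in 2 of 9 other settings (adjusted p up to 0.127). The day 4 call was lost in 2 of 10 other settings (adjusted p up to 0.112), 1 of them day 4 fitted alone. The day 1 call was lost on the high side of the split, alone (-1.15, adjusted p = 0.0577) and with the other days kept (-1.11, adjusted p = 0.205). Thbs3, a thrombospondin known from skeletal growth, was lower at day 1 (-0.80 ± 0.26, adjusted p = 0.0230) and higher at day 4 (1.07 ± 0.29, adjusted p = 0.0135), with -0.18 ± 0.31 at day 2 (adjusted p = 0.765; edgeR). Its exons overlap those of Mtx1 on the other strand by 318 bases, and whether counting used strand was not given in the sources used here. The day 1 call of Thbs3 was lost without CTRL 1 or 3 or EXP 3 or 4 (adjusted p up to 0.0730) and in 4 of 10 other settings (adjusted p up to 0.248), and the day 4 call without EXP 2 (0.58, adjusted p = 0.179) or with day 4 fitted alone (1.05, adjusted p = 0.0808). Without any 1 day 2 library other than EXP 2, 1 to 3 genes of the list were called at day 2 (4.88% to 8.58% of all genes). Without EXP 2 of day 4, 6 were called at day 4 (10.9% of all genes).

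**Figure D4:**
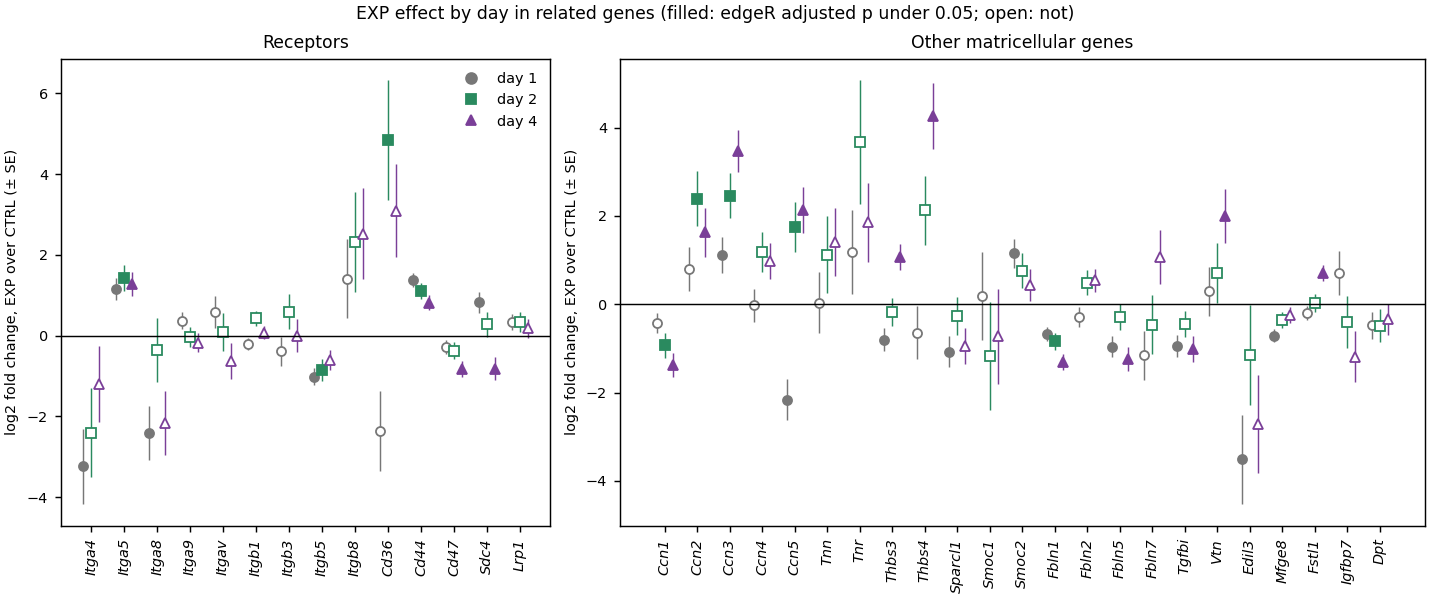
Log2 fold change of EXP over CTRL (± SE) at days 1, 2 and 4 for the 14 receptor genes (left) and the 23 tested other matricellular genes (right); filled symbols passed an adjusted p of 0.05 in edgeR. Itga5 and Cd44 on the left and Ccn3 on the right are filled above 0 on all 3 days, and Fbln1 is filled below 0 on all 3.

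Within 1 side of the library split, fewer of the 10 genes were called at day 1 than with all libraries. The 5 high-side libraries of day 1 called 2 of the 10 genes (Fn1, -1.86, and Spon2, -2.82), when 13.9% of all genes were called. With the other days kept in the fit, 1 was called (Fn1), when 13.3% of all genes were called, and Spon2 had an adjusted p of 0.0631 (edgeR). The 5 low-side libraries of day 4, fitted alone, called none of the 10 and none of either list in edgeR (4 of the 10 had an unadjusted p under 0.05) and 1 gene of 16462 in all, with Tnc at 5.76, Spp1 at 4.27 and Postn at 2.01. With the other days kept in the fit, the same libraries called Tnc, Spp1 and Postn, when 7.50% of all genes were called. All day 2 libraries lay on the low side, and fitted alone they called 8 of the 10 genes, when 22.9% of all genes were called. With the split as a covariate, 4, 5 and 4 of the 10 genes were called at days 1, 2 and 4, against 27.8%, 14.9% and 16.4% of all genes.

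Where exons of the 10 genes overlap another gene, the neighbour had few counts. Tnc shares 176 bases with 8030451A03Rik on the other strand, which had 1008 counts over all libraries, against 1440 to 411200 counts for Tnc in a single library. Fn1 shares 292 bases with Apol7d (79 counts), Thbs1 shares 208 bases with Gm29233 (12 counts), Spp1 shares 309 bases with Gm42793 (32 counts) and Tnxb shares 3 bases with Cyp21a2-ps (129 counts). The other 5 overlap no gene.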

How the data were processed

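The authors deposited 1 table of raw counts per Ensembl gene for 22 libraries; per the submitters' processing notes, reads were trimmed with Trimmomatic and the build was mm39. The aligner, the counter, the annotation and strandedness were not given in the sources used here. Every column matched a label. Symbols came from a list of gene names (52081 of 55414 IDs matched). Exon lengths and overlaps came from GENCODE M21, whose coordinates were not used for the counts.

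From the deposited counts, edgeR 4.0.16 (R 4.3.3) was run with a filter at a minimum count of 10 in group size (17554 genes), TMM scaling (factors 0.802 to 1.32) and the quasi-likelihood test with robust estimates. It fitted a mean for each of 6 groups (16 residual degrees of freedom), with Benjamini-Hochberg adjustment over all tested genes. Correlations used log2 CPM with a prior count of 2. The test was first tested on simulated data.

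The genes and lists were chosen with earlier results of these data known. Named in the text were all 10 genes; of the 2 lists, those called on all 3 days in 1 direction or in opposite directions on different days; and the 3 genes nearest to each member by Pearson correlation. Other genes are named as markers of the gate or of other cell types. Alternatives were DESeq2 1.42.0, limma 3.58.1 voom, other scalings and filters, separate fits, a replicate block, the library split, and leaving out each library. Fits on 1 side of the split with the other days kept were chosen after seeing the data.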

Additional observations from a re-analysis of the deposited data

Results flagged for a closer look

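Among 30 groups of 4 or 5 libraries checked for a library far from the others, 2 had one, where chance gives about 1 in 20. Thbs1 stood at 9471 CPM in EXP 1 of day 1, against 1234 to 3600 CPM in the other 4 EXP libraries; that library is 1 of the 7 above the gap in the genes that move with Rnf10. Without it the day 1 value of Thbs1 was -0.34 on the log2 scale in place of 0.23, neither passing the test. Spp1 stood at 54.9 CPM in CTRL 3 of day 1, against 25.4 to 29.5 CPM in the other 3 CTRL libraries.

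For 3 genes the effect of EXP differed between the days, by edgeR's joint test of the difference itself. The adjusted p was 0.00405 for Fn1, which went from -1.95 at day 1 to 0.95 at day 4. It was 0.00136 for Postn, which went from -1.42 at day 1 to 2.58 at day 2. It was 8.03e-04 for Spp1, which went from -0.85 at day 1 to 4.30 at day 4. All 3 passed without any 1 of the 22 libraries, with adjusted p up to 0.0167 for Fn1, 0.00419 for Postn and 0.00263 for Spp1. With the replicate block Postn passed (adjusted p = 0.0218), and Fn1 (0.0626) and Spp1 (0.0590) did not (edgeR). Of all genes, 2.28% passed with the block and 8.82% without it.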

How the results depend on the processing

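The lowest count of any of the 10 genes in a library was 92 (Spp1); in the lists Itga4, Itgb8, Tnr and Smoc1 had at most 39, 88, 63 and 41. Values are counts of genes called, or log2 fold changes. Leaving out 1 library gave 4 to 4, 4 to 5 and 2 to 5 of the 10 genes at days 1, 2 and 4 (5 without EXP 3 of day 4), 3 to 3 with a day-dependent effect, 3 to 4 changed within EXP and 0 to 1 within CTRL. It gave 5 to 8, 2 to 5 and 3 to 6 receptors, and 7 to 10, 1 to 5 and 6 to 12 other matricellular genes. With the day or arm fitted alone, 8 of the 10 genes were called at day 2 (22.9% of all genes). The low side of the split holds the same day 2 libraries and also gave 8. Of the 10 genes, 1 changed within CTRL (2.03% of all genes). At day 4, 1 receptor passed (7.12% of all genes), and 8 and 6 other matricellular genes passed at days 2 and 4. DESeq2 called 5 of the 10 as changed within EXP (20.2% of all genes) and 2 within CTRL (3.31%). With voom, 5 changed within EXP (14.5% of all genes) and 2 within CTRL (3.59%), and 7 receptors were called at day 2 (26.3%). Library totals gave 1 within CTRL (0.929% of all genes) and 8 other matricellular genes at day 2 (26.4%). Of the latter, no filter on low counts gave 3 (4.97% of all genes). The high side of the split at day 1 gave 2 of the 10 genes and 3 other matricellular genes (13.9% of all genes). With the other days kept it gave 1 of the 10, 3 receptors and 2 others (13.3%). The low side at day 4 gave 0, 0 and 0 in the 3 lists (0.00607% of all genes), with 4, 4 and 12 at an unadjusted p under 0.05 (edgeR). With the other days kept it gave 2 receptors (7.50%), and the low side at day 2 gave 8 other matricellular genes (22.9%). The causes were not tested.

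With the replicate block, which pairs libraries by number, 1 of the 10 genes had a day-dependent effect (Postn, adjusted p = 0.0218, with 0.0626 for Fn1 and 0.0590 for Spp1). The share of all genes with such an effect was 2.28% with the block and 8.82% without it. At day 2, 2 receptors and 3 other matricellular genes were called (12.6% of all genes, against 13.4% without the block). Tnc at day 1 (2.48, adjusted p = 0.105), Postn at day 4 (1.54, 0.0556) and Sparc at day 2 (-1.77, 0.0507) were lost. Of all genes, 24.7% and 15.4% were called at days 1 and 4, against 28.6% and 22.5%. The last-numbered EXP library of day 1 and CTRL library of day 4 had no same-numbered partner in the other arm. The part of this in the lost calls was not tested. Same-numbered libraries deviated together only weakly (r from -0.0664 to 0.164), and on no day did every pair exceed 0.1. At day 4 the pairs had 0.0795, 0.146 and 0.109. The labels do not say whether same-numbered libraries share more than a number. These correlations cannot decide it, because a shared block may move few genes. Without the filter on low counts, Postn at day 4 (adjusted p = 0.0654) and Sparc at day 2 (0.0659) were lost as well.

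Values that changed sign all belong to gene and day pairs that did not pass. Tnxb at day 1 was -0.0218 with voom, -0.0115 with the replicate block, -0.43 on the high side and -0.39 there with the other days kept, and -0.15 to 0.17 when 1 library was left out. Thbs1 was -0.0694 with voom and -0.0413 with the block at day 1 and -0.0637 with voom at day 4, with leave-out ranges of -0.34 to 0.45 and -0.11 to 0.31. Spon1 was 0.04005 at day 1 on the high side with the other days kept. At day 4 Spon1 was 0.32 with voom, 0.15 with the block, 0.39 with the split as a covariate, and 1.02 and 1.04 on the low side alone and with the other days kept. Its leave-out ranges were -0.0432 to 0.45 at day 2 and -0.64 to 0.21 at day 4. Thbs3 at day 2 was 0.30 with library totals and -0.39 to 0.06 when 1 library was left out.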
